A study of Mus musculus with 24 samples.

Results

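Imprinted genes are genes whose 2 parental copies differ in expression because 1 of them carries DNA methylation, laid down in the egg or in the sperm, at a control region. Of 43 such genes, chosen by name, 34 had a row among the 16572 gene names of the table and 9 had none. Of the 34, 28 belong to 17 domains whose control region gains its methylation in the oocyte, and 6 to 2 domains whose control region is methylated in sperm, while the third such domain, Rasgrf1, had no row. RNA was sequenced from mouse oocytes of class IV, the largest size class, given in the labels as 60 to 70 µm. The oocytes came from ovaries of mice aged 7 days (C57 Black6 per the labels, crossed with SV129 per the study's methods) and grew without follicles on gelatine-coated plates after enzymatic dissociation of the whole ovary. One group grew under 5% O2 for 9 days (IV 5% O2) and the other under 20% O2 for 14 days (IV 20% O2). Per the study's methods the medium was also changed more often under 5% O2. Oxygen, days in culture and medium changes therefore cannot be told apart. For IV 20% O2 the study's methods give a slightly smaller diameter than the labels do. No genotype was altered, no drug was added to either group, and each group is a pool of oocytes from an unstated number of animals.

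In the growing oocyte the marks that its own chromosomes inherited have been erased, and new, maternal methylation is being placed on both copies. Transcription that starts upstream and runs through a control region is known to precede its methylation in the oocyte, and many maternal control regions are promoters that lie inside a longer oocyte transcript. The regions of H19/Igf2, Dlk1-Meg3 and Rasgrf1 gain methylation in male germ cells and stay unmethylated in the egg. After fertilisation the zinc finger protein ZFP57 binds the methylated copy at the hexamer TGCCGC and protects it. The comparison of IV 5% O2 with IV 20% O2 asks how these genes are transcribed in culture while the marks are set.

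A few start regions are shown to make the hexamer visible. They were chosen because they hold it, so they are not typical of the members. In 5 of them the start lies inside a longer gene span, and Meg3 is from a sperm-marked domain. The sequences are RefSeq start regions on GRCm38.p6, reaching from 250 bases before to 50 bases after a gene's start. They are written 5′ to 3′ on the gene's strand, and capitals mark TGCCGC or its reverse complement GCGGCA. The Mest window is chr6:30737800-30738099 (plus strand) and its start lies 14503 bases inside the deposited Mest row. The Plagl1 window is chr10:13090582-13090881 (plus strand), 30328 bases inside the Plagl1 row. The Snrpn window is chr7:60005150-60005449 (minus strand), 135020 bases inside the Snrpn row. The Nap1l5 window, chr6:58907077-58907376 (minus strand), lies inside Herc3. The Nnat window, chr2:157559828-157560127 (plus strand), lies inside Blcap. The Meg3 window is chr12:109540746-109541045 (plus strand) and surrounds the start of the Meg3 row. It is not the germline region of that domain, which is known to lie upstream.
Mest: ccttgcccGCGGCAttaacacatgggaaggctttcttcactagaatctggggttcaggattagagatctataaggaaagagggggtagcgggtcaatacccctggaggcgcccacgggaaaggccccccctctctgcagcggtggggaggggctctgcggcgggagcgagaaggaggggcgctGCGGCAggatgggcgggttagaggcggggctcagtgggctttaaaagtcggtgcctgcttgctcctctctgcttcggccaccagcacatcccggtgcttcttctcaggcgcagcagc
Plagl1: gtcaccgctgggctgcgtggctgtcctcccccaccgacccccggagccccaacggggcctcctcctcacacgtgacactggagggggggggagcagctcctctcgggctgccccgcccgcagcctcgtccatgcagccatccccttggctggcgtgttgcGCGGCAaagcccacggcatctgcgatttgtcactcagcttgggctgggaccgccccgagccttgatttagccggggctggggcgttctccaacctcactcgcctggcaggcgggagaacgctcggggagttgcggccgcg
Snrpn: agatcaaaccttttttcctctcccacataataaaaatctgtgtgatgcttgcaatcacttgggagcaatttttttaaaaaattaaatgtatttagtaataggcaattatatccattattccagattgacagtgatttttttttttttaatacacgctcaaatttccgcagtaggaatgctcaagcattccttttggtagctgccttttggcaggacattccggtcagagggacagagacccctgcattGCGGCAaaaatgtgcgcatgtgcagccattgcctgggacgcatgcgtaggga
Nap1l5: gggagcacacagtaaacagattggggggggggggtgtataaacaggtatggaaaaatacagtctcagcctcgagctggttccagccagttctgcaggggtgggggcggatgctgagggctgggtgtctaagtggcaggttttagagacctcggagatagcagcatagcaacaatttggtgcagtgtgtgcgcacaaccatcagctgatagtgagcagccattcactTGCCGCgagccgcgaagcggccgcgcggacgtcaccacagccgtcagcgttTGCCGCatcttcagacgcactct
Nnat: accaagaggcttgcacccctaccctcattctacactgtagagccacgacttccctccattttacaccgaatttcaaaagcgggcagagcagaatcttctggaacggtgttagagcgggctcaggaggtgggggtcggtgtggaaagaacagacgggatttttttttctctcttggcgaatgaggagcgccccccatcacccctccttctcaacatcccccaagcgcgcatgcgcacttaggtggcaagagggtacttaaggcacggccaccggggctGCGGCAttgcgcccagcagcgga
Meg3: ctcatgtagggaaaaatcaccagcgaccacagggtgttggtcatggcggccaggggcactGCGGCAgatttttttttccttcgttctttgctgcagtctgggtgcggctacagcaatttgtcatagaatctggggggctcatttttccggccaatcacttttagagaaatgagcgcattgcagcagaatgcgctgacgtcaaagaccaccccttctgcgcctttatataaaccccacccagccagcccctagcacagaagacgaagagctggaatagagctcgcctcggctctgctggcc

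A start region was given for 35 of the 43 members, with 51 windows in all. TGCCGC, searched on both strands, was found in 13 of these windows (25.5%), against 11.6% of the 32851 start regions of all genes. Of the nested genes, Airn, Kcnq1ot1 and Zrsr1 had none, and of the 4 Snrpn windows only the one shown had one. Of the 29 members with an oocyte-methylated region and a window, 10 (34.5%) had a match, against 13.1% of the 27025 genes with a window. They were Grb10, Mcts2, Mest, Copg2, Nap1l5, Nnat, Zim1, Plagl1, Snrpn and Commd1. Of the 6 with a sperm-methylated region, 2 had one, Meg3 and Igf2. The windows of the oocyte-methylated domains held a median of 17 CpG and those of the sperm-methylated domains 9.5, against 7 over all start regions. Mest and Nap1l5 held 2 hexamers in a window. Peg3 and Usp29, whose spans begin 146 bases apart and run in opposite directions, held none in theirs. A match is a match of letters in this window only, and the windows are not independent where starts of 1 gene lie close together. The windows are start regions of genes, not control regions, whose coordinates were not available. The match of Commd1 lies at its own start, while its window near Zrsr1 had none. The hexamer holds a CpG, and genes with several windows have more places for a match. Whether the shares exceed what CpG content and window number would give was not tested.

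The table holds 1 value per gene and condition, although 2 libraries per condition were sequenced, and the sources used here do not state how they were combined. The differences below could not be set against the spread between libraries, and no SD or p-value is given. On a linear scale, 99.98% of the deposited log2 values in each column came to a whole number of reads, within 0.1 read, so they were read as RPM (read counts scaled to sequencing depth), with no correction for length. Implied depth was 132185252 reads for IV 5% O2 and 40875358 for IV 20% O2. A value of 1 RPM was 132 reads in the first and 41 reads in the second, and a gene with no reads could have up to 3, or 0.0227 and 0.0734 RPM. Intervals of ratios are exact Clopper-Pearson intervals at 95% and cover counting error only. Reads without molecular identifiers are not independent molecules, so the intervals may be too narrow even for that error. Differences are IV 5% O2 minus IV 20% O2 on log2(RPM + 1), which understates those of low genes. The median gene of the 14704 with a mean of at least 1 RPM lay at 0.26 (1.20-fold higher in IV 5% O2), and 18.7% of them were at least 2-fold higher and 9.22% at least 2-fold lower. In bulk RNA, fewer cells of a type and less RNA per cell cannot be told apart.

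Members of sperm-methylated domains were mostly low beside those of oocyte-methylated domains, with ranges that overlapped. All 34 members reached 1 RPM in IV 5% O2, where 1 RPM was taken as expressed, and 29 (85.3%) did in IV 20% O2 and in both columns. Of all gene names, 91.6% reached it in IV 5% O2, 84.3% in IV 20% O2 and 78.6% in both, so these shares are near the background. None was below 0.1 RPM in both. Of the 28 members of oocyte-methylated domains, 27 were expressed in both columns, and the exception was Cdh15, a cadherin of muscle and cerebellum, at 1.81 RPM in IV 5% O2 against 0.930 RPM in IV 20% O2. Of the 6 members of sperm-methylated domains, 2 were expressed in both, Igf2 and Rian, while H19, Dlk1, Meg3 and Mirg were below 1 RPM in IV 20% O2 only. Per kb of exon, which allows levels of different genes to be compared, the oocyte-methylated members had a median level of 6.59 RPM per kb in IV 5% O2 and 4.29 in IV 20% O2. The sperm-methylated members had a median of 0.321 and 0.0254 RPM per kb, and all tested genes 4.71 and 4.19. The highest sperm-methylated level was 1.88 RPM per kb (H19) in IV 5% O2 and 0.175 (Igf2) in IV 20% O2. Of the 28 oocyte-methylated members, 19 and 26 lay above it, and the lowest were Kcnq1ot1 at 0.107 in IV 5% O2 and Ppp1r9a at 0.0774 in IV 20% O2. On the same scale the highest members were Blcap at 35.7 in IV 5% O2 and Grb10 at 41.4 in IV 20% O2.

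**Figure D1:**
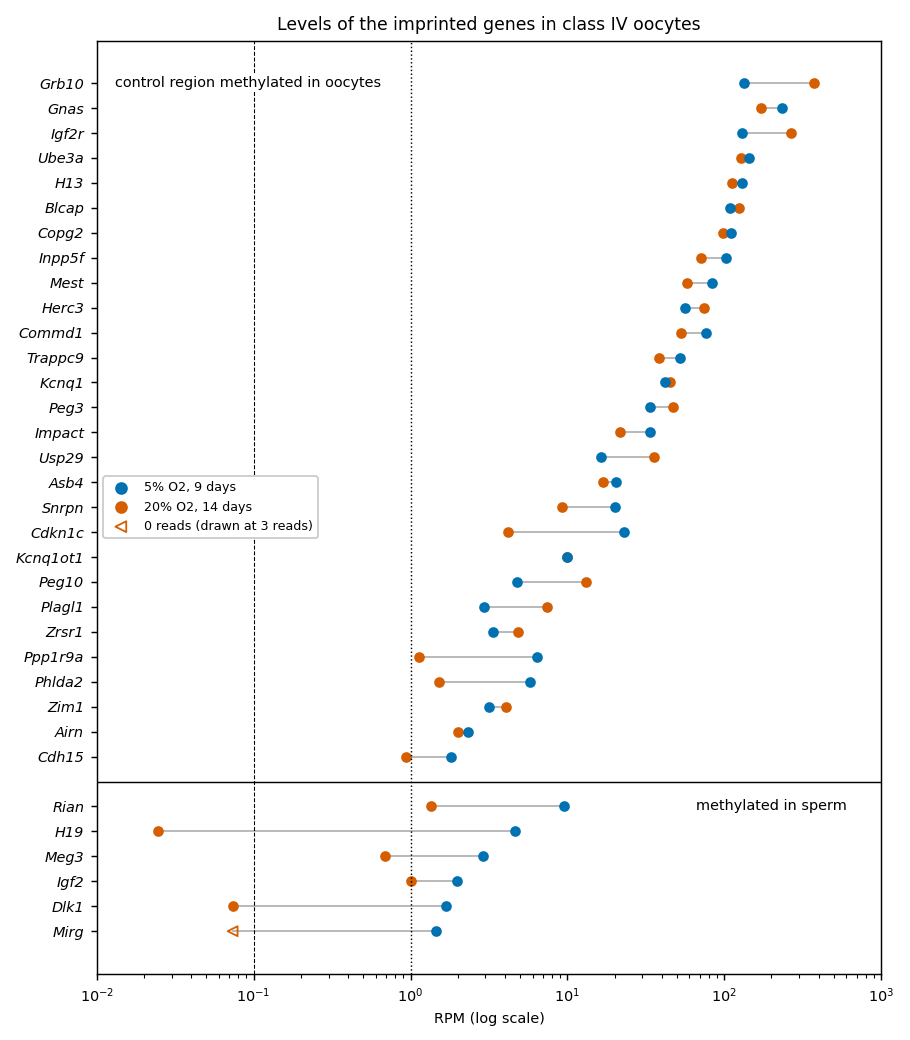
RPM on a log axis of the 34 imprinted genes with a row, one line per gene, in IV 5% O2 (blue, 9 days of culture) and IV 20% O2 (orange, 14 days), ordered by level within the oocyte-methylated (top) and sperm-methylated (bottom) domains. Vertical lines mark 1 and 0.1 RPM, and the open triangle stands for Mirg, with 0 reads in IV 20% O2. All points of the upper block except Cdh15 in IV 20% O2 lie right of 1 RPM, and all 6 genes of the lower block lie further left in IV 20% O2 than in IV 5% O2. Levels of different genes on this axis also reflect their lengths.

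Most members without a row are paternally expressed. Of the 9, 8 are expressed from the paternal copy in other tissues, namely Rasgrf1, Ndn, Magel2, Sgce, Nnat, Nap1l5, Mcts2 and Peg13. The other one is Slc22a18, a maternally expressed transporter of the Kcnq1ot1 domain. That is 8 of 20 paternally expressed members had no row, against 1 of 16 maternally expressed ones. Why a gene has no row is not stated, and no value is given for these 9. Ndn and Magel2, which act in hypothalamic neurons, lie in the Snrpn domain, and Sgce, a sarcoglycan, starts 98 bases from Peg10 on the other strand.

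Nested imprinted genes had no row or lay below their hosts per kb of exon. Each of 7 imprinted genes starts inside a longer gene, and 6 of them lie wholly within its span. All 7 hosts were expressed, between 38.1 and 267 RPM. Mcts2, a retrogene, lies in H13 (signal peptide peptidase), which had 129 RPM in IV 5% O2 against 112 RPM in IV 20% O2. Nap1l5 lies in Herc3, a ubiquitin ligase gene, with 56.5 and 74.2 RPM. Nnat (neuronatin, a small membrane protein of brain) lies in Blcap, with 109 and 124 RPM. Peg13, a non-coding RNA, lies in Trappc9, which encodes a vesicle-tethering subunit, with 52.3 and 38.1 RPM. These 4 nested genes had no row, so their hosts stand alone in the table.

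Of the 3 nested genes with a row, each was lower than its host per kb of exon in both columns. Airn, the non-coding RNA that silences Igf2r on the paternal copy of somatic cells, had 0.648 RPM per kb in IV 5% O2 and 0.558 in IV 20% O2. Igf2r, the receptor that clears IGF2, had 14.0 and 28.7 RPM per kb, 21.6 and 51.4 times the level of Airn. Kcnq1ot1, the antisense RNA of the Kcnq1 domain, had 0.107 RPM per kb in each column. Kcnq1, a potassium channel gene that spans it, had 10.2 and 11.0 RPM per kb, 96.0 and 103 times as much. Zrsr1, a splicing factor retrogene, had 0.748 and 1.07 RPM per kb. Its host Commd1, a regulator of copper handling, had 12.8 and 8.94 RPM per kb, 17.2 and 8.33 times as much. All 3 lie antisense to their hosts. The libraries kept strand, but whether reads were counted by strand is not stated, so part of the reads of Airn, Kcnq1ot1 and Zrsr1 could be those of the host. Zrsr1 also lies inside a second deposited row, Commd1b.

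**Figure D2:**
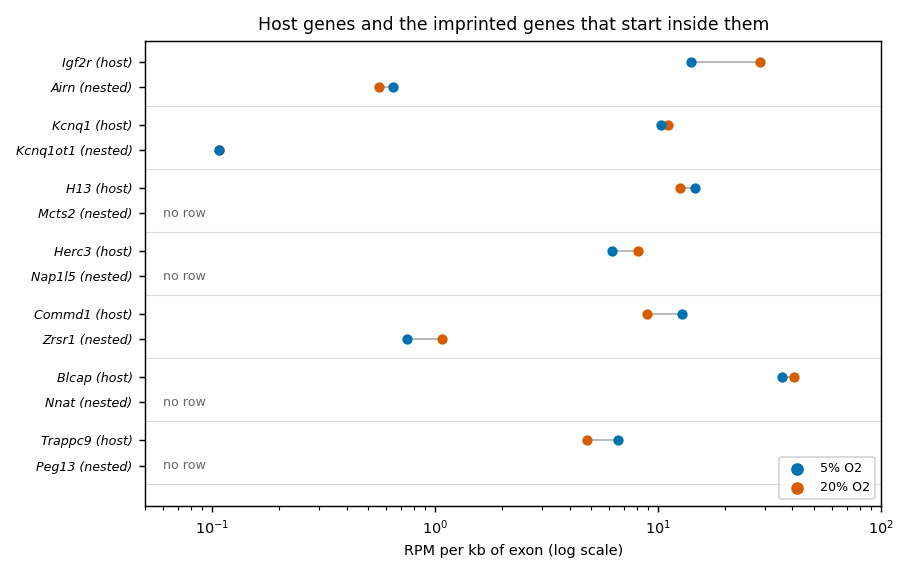
RPM per kb of exon on a log axis for 7 host genes and the imprinted gene that starts inside each, in IV 5% O2 (blue) and IV 20% O2 (orange). The hosts lie between 4.81 and 40.8, Airn, Kcnq1ot1 and Zrsr1 lie between 0.107 and 1.07, and Mcts2, Nap1l5, Nnat and Peg13 have no row.

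Between the columns, 32 members with a mean of at least 1 RPM could be compared, and their median difference was 0.24 on the log2 scale, beside 0.26 for all genes. At least 2-fold higher in IV 5% O2 were 7 members (21.9%), H19, Meg3, Rian, Snrpn, Cdkn1c, Phlda2 and Ppp1r9a, against 18.7% of all genes. At least 2-fold lower were 5 (15.6%), Igf2r, Usp29, Plagl1, Grb10 and Peg10, against 9.22%. Of these 12, Cdkn1c and Grb10 stayed at least 2-fold apart under every setting tried. With a pseudocount of 5 RPM the difference fell under 2-fold for H19 (0.94), Meg3 (0.48), Snrpn (0.82), Phlda2 (0.73), Ppp1r9a (0.90), Usp29 (-0.92), Plagl1 (-0.64) and Peg10 (-0.89). On log2(RPM per kb of exon + 1) it did so for Meg3 (0.16), Rian (0.50), Snrpn (0.97), Ppp1r9a (0.42), Igf2r (-0.99), Usp29 (-0.63), Plagl1 (-0.50) and Peg10 (-0.79). Division by length leaves the ratio between the columns unchanged, so these falls come from the added 1. With quantile normalization the difference fell under 2-fold for Meg3 (0.86) and Snrpn (0.90). Relative to the median gene, 16 members lay above and 16 below. Shares this near to those of all genes are no result about the members as a set. Dlk1 and Mirg had a mean under 1 RPM and were not counted, and H19 and Meg3 were counted only through their level in IV 5% O2, so that the counts support nothing about the sperm-methylated genes. The counting interval of the ratio left out 1 for 32 of the 34 members and held it for Airn and Kcnq1ot1. At these depths the interval can leave out 1 for a small difference. The same share over all genes was not computed, so this count is no result about the members.

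**Figure D3:**
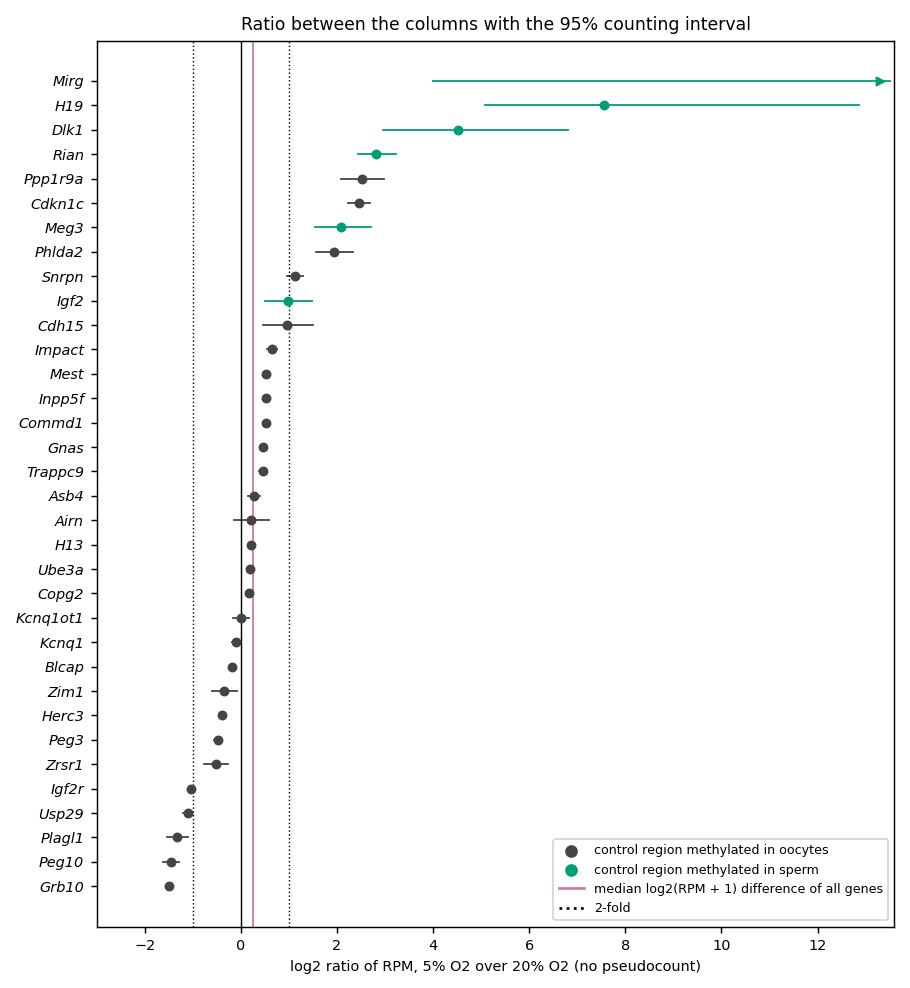
Log2 ratio of RPM, IV 5% O2 over IV 20% O2 and without a pseudocount, for the 34 members, with exact 95% counting intervals, in black for oocyte-methylated and green for sperm-methylated domains. Dotted lines mark 2-fold and the pink line the median log2(RPM + 1) difference of all genes, 0.26. The 6 sperm-methylated genes lie above 0, Mirg has no upper limit because it had 0 reads in IV 20% O2, and Grb10, Peg10, Plagl1, Usp29 and Igf2r lie below -1.

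All 6 genes of the sperm-methylated domains had the higher value in IV 5% O2, as did 63.0% of all gene names. At H19/Igf2 on chromosome 7, H19 (142575529-142578143, minus strand), a maternally expressed non-coding RNA that restrains growth, had 4.62 RPM from 611 reads in IV 5% O2 against 0.0245 RPM from 1 read in IV 20% O2. The ratio was 189, with an interval from 33.8 to 7475 that rests on that single read. Igf2, a paternally expressed fetal growth factor 72622 bases away, had 1.97 RPM (260 reads) and 1.00 RPM (41 reads), a ratio of 1.96 with an interval from 1.41 to 2.80. On the log2(RPM + 1) scale H19 differed by 2.46 and Igf2 by 0.57, less than 2-fold. The Igf2 row partly overlaps the row Gm49394 on the same strand.

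The Dlk1-Meg3 domain on chromosome 12 encodes Dlk1, a paternally expressed membrane protein that restrains adipocyte formation, and the maternally expressed non-coding RNAs Meg3, Rian and Mirg, which host small RNAs. Rian (109603808-109661716, plus strand) had 9.50 RPM (1256 reads) in IV 5% O2 against 1.35 RPM (55 reads) in IV 20% O2, a ratio of 7.06 with an interval from 5.39 to 9.43. Meg3 (109541001-109571726) had 2.91 RPM (385 reads) and 0.685 RPM (28 reads), a ratio of 4.25 with an interval from 2.90 to 6.48. Mirg (109729764-109749460) had 1.46 RPM (193 reads) in IV 5% O2 against no read in IV 20% O2, and lay 19.9-fold above a floor of 3 reads in that column. The exact interval of its ratio, which also holds the counting error of the 193 reads, began at 16.0. Dlk1 (109452823-109463336) had 1.69 RPM (223 reads) and 0.0734 RPM (3 reads), a ratio of 23.0 with an interval from 7.76 to 112. The order of level per kb within the domain in IV 5% O2 was Rian (0.521 RPM per kb), Dlk1 (0.298), Mirg (0.200) and Meg3 (0.161). Of the 100-base windows of exon, 3.37% in Rian and 2.89% in Meg3 occur again in the genome. The number of reads with several alignments is not known here.

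Most theca and stroma markers, which belong to cells around the follicle, also had the higher value in IV 5% O2. Of 18 theca and stroma markers, 11 had a row, 10 of them had the higher value in IV 5% O2, as 63.0% of all gene names did, and their summed level was 46.1 RPM in IV 5% O2 against 7.17 RPM in IV 20% O2. Cyp11a1, the first enzyme of steroid synthesis, had 16.4 and 0.122 RPM. Vim (vimentin) had 2.72 RPM in IV 5% O2, Dcn (decorin) 2.43 and Col1a2 (a collagen) 0.431, and each had 0 reads in IV 20% O2. Nr2f2 had 0.787 and 1.69 RPM, the other direction. Cyp17a1, Lhcgr, Col1a1, Pdgfrb, Lum, Acta2 and Tagln had no row. Of 15 granulosa markers 7 had a row, 6 were higher in IV 5% O2, and their sum was 162 and 40.0 RPM, of which Krt8, a keratin, alone had 121 and 10.2. Fshr had 0 reads in IV 5% O2 and Inha 0 in IV 20% O2, while Amh and Foxl2 had no row. Of 8 macrophage markers 4 had a row and summed to 19.4 and 22.3 RPM. Csf1r, the highest of them, had 9.28 and 15.0 RPM, lower in IV 5% O2. Cd68, Mrc1 and Lyz2 had the higher value there, Lyz2 with 0 reads in IV 20% O2. Of 7 endothelial markers 4 had a row and summed to 61.2 and 37.5 RPM, of which Pecam1 alone had 45.9 and 32.7. Of these 4, 3 were higher in IV 5% O2, with Kdr at 0 reads in IV 20% O2. Flt1 had 0.204 and 1.42 RPM, the other direction. The sperm-methylated members summed to 22.2 and 3.13 RPM. The part of such cells in the sperm-methylated genes and in the other differences was not tested. All 10 oocyte markers were abundant in both columns, from 28.3 RPM (Figla) to 2346 RPM (Gdf9) in IV 5% O2 and from 40.5 to 3807 RPM (Zp2) in IV 20% O2. Their sum was 7454 and 11386 RPM, and 8 of the 10 had the lower value in IV 5% O2, as 37.0% of all gene names did. Zp2, Zp3 and Kit were at least 2-fold lower, beside 9.22% of all genes, and the markers' median log2 difference was -0.43, beside 0.26.

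**Figure D4:**
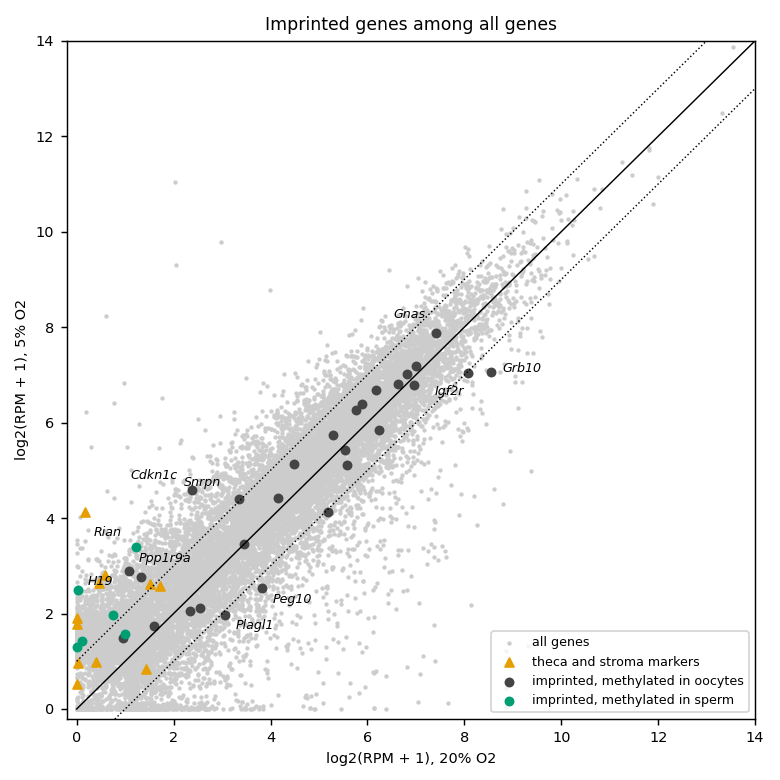
log2(RPM + 1) of all genes (grey) in IV 20% O2 (horizontal) and IV 5% O2 (vertical), with the imprinted genes of oocyte-methylated (black) and sperm-methylated (green) domains and the theca and stroma markers (orange triangles). The solid line is equality and the dotted lines are 2-fold. The green points and most triangles lie near the left edge, and 10 of the 11 triangles lie above equality.

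Grb10, Igf2r and Plagl1, of 3 oocyte-methylated domains, were at least 2-fold lower in IV 5% O2, of which only Grb10 was so under every setting tried. Grb10 (chromosome 11, 11930508-12038683, minus strand), an adaptor that dampens insulin and IGF receptor signalling, had 133 RPM in IV 5% O2 against 376 RPM in IV 20% O2. It was 2.82-fold lower in IV 5% O2, with an interval from 2.76 to 2.88. Igf2r (chromosome 17, 12682406-12769664, minus strand) had 130 and 267 RPM and was 2.05-fold lower, with an interval from 2.00 to 2.10. Plagl1 (chromosome 10, 13060504-13131694, plus strand), a zinc finger factor that arrests growth, had 2.94 RPM (389 reads) and 7.36 RPM (301 reads) and was 2.50-fold lower, with an interval from 2.15 to 2.92. Airn, which overlaps the first 28354 bases of Igf2r from the other strand, had 2.33 and 2.01 RPM (308 and 82 reads), and the interval of its ratio ran from 0.908 to 1.50. Slc22a3, an organic cation transporter beside Igf2r, had 2.99 and 2.54 RPM.

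The Kcnq1ot1 domain of chromosome 7 held Cdkn1c, the oocyte-methylated member furthest above equality on the log2(RPM + 1) scale (2.21), and its members did not share 1 direction. Cdkn1c (143458339-143461050, minus strand) encodes an inhibitor of the cell cycle and had 23.1 RPM (3054 reads) in IV 5% O2 against 4.21 RPM (172 reads) in IV 20% O2. Its ratio was 5.49, with an interval from 4.71 to 6.44. Phlda2 (143501545-143503150, minus strand), which restrains growth of the placenta, had 5.79 RPM (766 reads) and 1.52 RPM (62 reads), a ratio of 3.82 with an interval from 2.95 to 5.03. Kcnq1ot1 and Kcnq1 did not show that difference. Kcnq1ot1 (143203458-143296549, minus strand) had 9.94 and 9.96 RPM (1314 and 407 reads), a ratio of 0.998 with an interval from 0.893 to 1.12. Kcnq1 (143106362-143427042, plus strand) had 41.9 and 45.1 RPM, a ratio of 0.929 with an interval from 0.882 to 0.980. The other genes of the domain that were listed and had a row lay within 2-fold. Nap1l4 had 385 and 237 RPM, Tssc4 22.2 and 15.4, Osbpl5 8.47 and 13.2, Cd81 3.94 and 4.84, and Th (tyrosine hydroxylase) 58.6 and 95.8.

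The members of the Peg3 domain of chromosome 7 all had the lower value in IV 5% O2. Usp29 (6730578-6967219, plus strand), a deubiquitinase gene, had 16.4 RPM (2166 reads) in IV 5% O2 against 35.4 RPM (1448 reads) in IV 20% O2, 2.16-fold lower with an interval from 2.02 to 2.31. Peg3 (6703892-6730431, minus strand), a zinc finger gene known for its role in maternal care, had 33.5 and 46.8 RPM. Zim1, a maternally expressed zinc finger gene, had 3.17 and 4.04 RPM. Zim2 and Zim3 of the same domain went the other way, and both were at least 2-fold higher in IV 5% O2. Zim2 had 5.18 and 1.69 RPM, and Zim3, which overlaps Usp29 on the opposite strand, had 10.9 and 4.18 RPM. The domain therefore held differences of both signs over neighbouring genes.

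In the Peg10 domain of chromosome 6, Peg10 was at least 2-fold lower in IV 5% O2 and Ppp1r9a at least 2-fold higher. Both differences fell under 2-fold with a pseudocount of 5 RPM and on log2(RPM per kb of exon + 1). Division by length alone leaves both ratios unchanged. Peg10 (4747306-4760517, plus strand), a retrotransposon-derived gene needed in the placenta, had 4.79 RPM (633 reads) in IV 5% O2 against 13.1 RPM (536 reads) in IV 20% O2, 2.74-fold lower with an interval from 2.44 to 3.08. Ppp1r9a (4902917-5165661, plus strand), an actin-binding scaffold of synapses, had 6.45 RPM (852 reads) and 1.13 RPM (46 reads), a ratio of 5.73 with an interval from 4.26 to 7.88. Asb4, an ankyrin and SOCS box gene, had 20.5 and 16.9 RPM. Pon3, a paraoxonase gene listed in the same domain, had 1.37 and 7.76 RPM and was at least 2-fold lower, while Pon2 had 0.598 and 0.465 RPM and Casd1 5.23 and 9.91 RPM.

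In the Snrpn domain of chromosome 7, Snrpn (59982495-60140219, minus strand), which encodes a splicing protein, had 20.1 RPM (2653 reads) in IV 5% O2 against 9.22 RPM (377 reads) in IV 20% O2, a ratio of 2.18 with an interval from 1.95 to 2.43. Its log2 difference of 1.04 was just past 2-fold and fell under it with both other scalings (0.75 and 0.90). The row of Snurf, inside Snrpn on the same strand, had 1.93 and 3.01 RPM, so its reads and those of Snrpn may be split between the rows. Ube3a, the ubiquitin ligase of Angelman syndrome, had 145 and 127 RPM. Its antisense partner Snhg14 had 7.79 and 10.4 RPM. Atp10a, a lipid flippase gene beside Ube3a, had 13.8 RPM (1825 reads) and 1.86 RPM (76 reads), a ratio of 7.43 with an interval from 5.90 to 9.47.

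The other oocyte-methylated members lay within 2-fold. Gnas, the stimulatory G protein locus, had 235 and 171 RPM, and Gnasas1 (formerly Nespas), a row on its opposite strand, had 2.47 and 0.563 RPM. Mest, a hydrolase gene, had 83.2 and 57.8 RPM, and its neighbour Copg2, a coat protein gene whose row overlaps it by 912 bases on the other strand, 110 and 98.2 RPM. Impact, a regulator of the translational stress response, had 33.8 and 21.5 RPM, Inpp5f, a lipid phosphatase gene, 102 and 71.1, and Commd1 76.2 and 53.0. These 6 members were higher in IV 5% O2, Copg2 only without rescaling, and Commd1 may share reads with the row Commd1b. Zrsr1 had 3.36 and 4.82 RPM. Cdh15, with 239 and 38 reads, lies inside the row Galnt2l on the same strand, which had 18.4 and 9.59 RPM. Airn, Copg2, Ube3a, Asb4 and H13 were higher in IV 5% O2 by at most 0.26 on the log2 scale. Median-ratio scaling turned them lower, as it must for genes so near the median gene, so their direction is a matter of the scale chosen.

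By the copy expressed in other tissues, the 10 paternally expressed members of oocyte-methylated domains had a median log2 difference of -0.21, with 1 at least 2-fold higher and 3 at least 2-fold lower. The 11 maternally expressed members had a median of 0.26, with 3 higher and 1 lower. The median of all genes was also 0.26, with 18.7% higher and 9.22% lower, and the difference between these small groups was not tested. In growing oocytes neither label describes allelic expression, because the inherited imprints have been erased.

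Of 36 further imprinted genes listed by name, 22 had a row under that name and 21 a mean of at least 1 RPM. Of these, 6 were at least 2-fold higher in IV 5% O2 and 2 at least 2-fold lower, beside 18.7% and 9.22% of all genes, and their median was 0.24, beside 0.26. Dio3, a deiodinase that inactivates thyroid hormone at the far end of the Dlk1-Meg3 domain, had 46.3 RPM (6117 reads) in IV 5% O2 against 8.10 RPM (331 reads) in IV 20% O2, a ratio of 5.71 with an interval from 5.12 to 6.40. Per kb of exon its level was 22.8 and 3.99 RPM, above those of the members there. Begain, upstream of Dlk1, had 2.28 and 0.612 RPM, and Wdr25 24.3 and 18.7. Qpct, a glutaminyl cyclase, had 4.10 RPM (542 reads) and 0.220 RPM (9 reads). Zdbf2, a zinc finger gene, had 8.20 RPM (1084 reads) and 25.1 RPM (1024 reads), 3.05-fold lower with an interval from 2.80 to 3.33.

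Genes imprinted by histone methylation rather than DNA methylation were also looked up. The list of 10 such non-canonical names stands for 9 genes, since Phf17 is an older name of Jade1. Of them 6 had a row and 5 had the lower value in IV 5% O2, as 37.0% of all gene names did, and of the 5 tested 3 were at least 2-fold lower and 1 at least 2-fold higher, beside 9.22% and 18.7% of all genes. Smoc1, a matricellular protein gene, had 22.7 and 71.5 RPM, Jade1, a chromatin reader, 6.79 and 15.4, and Slc38a4, an amino acid transporter, 0.953 and 4.16. Sall3 went the other way, with 3.31 and 0.734 RPM. Sfmbt2, a polycomb protein gene, had 0.174 and 1.49 RPM and a mean under 1 RPM, and Gab1 3.31 and 5.26.

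Of 16 factors that set and keep imprints, 15 reached 1 RPM in both columns, as 78.6% of all gene names did. All 16 were tested, 1 was at least 2-fold higher and none lower, beside 18.7% and 9.22% of all genes, and their median was 0.18, beside 0.26. Dnmt3l, the cofactor of de novo methylation, had 102 RPM (13502 reads) in IV 5% O2 against 25.7 RPM (1049 reads) in IV 20% O2, a ratio of 3.98 with an interval from 3.74 to 4.24. Dnmt3a, the enzyme it stimulates, had 118 and 105 RPM. Kdm1b, the demethylase that clears H3K4 methylation from maternal control regions, had 529 and 695 RPM. Zfp57 had 1385 and 784 RPM, and its partner Trim28 558 and 357. Ctcf, which binds the unmethylated H19/Igf2 control region, had 107 and 89.5 RPM, and Ctcfl 1.88 and 0.661.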

How the data were processed

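The RNA-seq libraries of class IV oocytes were analysed, 2 from culture in 5% O2 and 2 from 20% O2. The RRBS and PBAT libraries were not analysed here. Per the labels' processing notes, Trim Galore (0.3.5 or 0.2.8) and TopHat2 2.0.9 were used, with the mouse build GRCm38. Counting was over exons in SeqMonk on an oocyte annotation, and the authors deposited log2 values, described as corrected for length, in 1 column per condition. The table also holds 1 value column that matches none of the samples, which was not used.

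The log2 was undone. Within 0.1 read, 99.98% of the values in each column were whole multiples of 1 read, so they were taken as RPM, with no correction for length. A gene without reads, deposited at 0.9 of 1 read, was set to 0. The table has 16591 rows, and for the 18 gene names with several rows the row with the highest mean was used. No member is among them.

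Differences were taken on log2(RPM + 1), with a pseudocount of 1 RPM and a mean of at least 1 RPM, and genes at least 2-fold apart were counted. The planned description needed no test, and none is possible on 1 pooled column per condition. Exonic lengths came from GENCODE M21, for 16198 gene names including all 34 members; the coordinates of 33 members were exactly those of the annotation. Windows of 50 and 100 bases, every 10 bases along the exons of members, were searched in 22 chromosome sequences. Coordinates are those of the table on GRCm38, and start regions are those of RefSeq on GRCm38.p6.

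The members and lists were chosen with earlier results of these data known. The genes named are all 43 members, in full those expressed in both columns, at least 2-fold apart or in sperm-methylated domains, and at most the 5 largest differences of each other list. Of the lists, cell type markers, imprint factors, non-canonical genes and genes of the members' domains outside that rule were named after their values were seen, as were rows that overlap members. The interval and the count of 2-fold differences were tested on simulated data. The simulated reads were independent, without spread between libraries or duplicate reads, as the interval assumes. That test therefore checks the computation only. The software was matplotlib 3.10.9, numba 0.67.0, Python 3.11.15, scipy 1.17.1, pandas 2.3.3 and numpy 2.4.6.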

Additional observations from a re-analysis of the deposited data

How the results depend on the processing

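No paired analysis was possible because each condition has a single pooled value per gene with no replicate number, and for the same reason leaving out a replicate and the replicate block were not run. The members at least 2-fold higher and lower in IV 5% O2, 7 and 5, became 2 and 2 with a pseudocount of 5 RPM, where those of all genes, 2753 and 1356, became 1202 and 706. Division by exonic length, with 1 added to the values per kb, gave 2 and 1 members and 1569 and 828 genes, on fewer genes tested. A mean of at least 5 RPM gave 3 members and 1691 genes higher. Median-ratio scaling gave 1700 genes higher and 2031 lower, so that 45.6% of the calls were higher in place of 67.0%, and the members' median of 0.24 turned to -0.056 as that of all genes turned from 0.26 to -0.04. Quantile normalization gave 1764 higher and 1866 lower (48.6% higher) and a members' median of 0.059. Without a filter the members' median was 0.35. Of 29 members expressed in both columns, 19 remained at 5 RPM and 19 reached 1 RPM per kb. The other counts stayed within 1.5 times. Under the 5 settings that can move a member's own difference, 102 of these values moved by less than their counting interval and 68 by more, and no member at least 2-fold apart turned its direction. Depth limits H19, Dlk1 and Mirg, which had 3 reads or fewer in IV 20% O2.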
